A study of Arabidopsis thaliana with 4 samples.

Results

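A set of 124 probe sets had lower signal in Arabidopsis thaliana rosette leaves 4 h after phosphate was withdrawn and about the same signal as full-nutrient leaves at 100 h. They were chosen by their measured intensities among 8247 probe sets. On the 4 h arrays the signal without phosphate was at least 2-fold below that with full nutrients, where the full-nutrient array reached 22.45. At 100 h the 2 solutions were within 1.4-fold of each other. Signals under 7.25 were set to that floor first. Of the 134 probe sets that met these limits, 10 were left out by gene name, among them those for KIN2, WRKY22, WRKY29, BGLU28, TBL26 and TBL37. The 4 h and 100 h phosphate ratios are therefore a description of how the set was made and carry no test. Of the 124 members, 49 name 1 gene each and stand for 45 genes, 1 names several genes and 74 are not listed in the platform annotation.

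Each of the 4 arrays is a group of its own, with no replicate, and their number limits the precision of every value. Plants of ecotype Col-5 were raised on sucrose agar under 16 h days until 21 days and then moved to hydroponics under continuous light, at 24 C, and all arrays carry the same growth stage label. They received either a complete solution with 0.25 mM potassium phosphate or a solution in which it was left out and 0.125 mM extra potassium sulphate was added, and rosette leaves were taken at 4 h or 100 h. How many plants each array represents is not given in the labels used here. The title codes of the arrays carry numbers that differ from the labelled hours. The array labelled full nutrients at 100 h bears a code of the kind found on the no-phosphate arrays, so that the control used at 100 h is in doubt. The number of members and the counts of courses over the arrays are also given without it, while the time comparison with full nutrients rests on it.

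Plants take up phosphate as an ion and use it in nucleic acids, membrane phospholipids and sugar phosphates. SPX proteins hold back the transcription factor PHR1 while phosphate is ample. When it runs short, PHR1 is released and switches on genes for transporters, phosphatases and lipid remodelling. None of the 32 phosphate starvation genes listed for this work, such as PHR1, the SPX genes and the PHT1 transporters, had a named probe set, so the known pathway could not be set beside the members.

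At both times the no-phosphate array differed from its control in measures other than the members, and in these by more at 100 h than at 4 h. The 4 h pair is given first. Its background was 56.94, against 49.74 for the full-nutrient array. The log2 ratio of the 9 spike-in probe sets averaged -0.51 ± 0.12 (SD, n = 9 probe sets). Signal from the 3' end of GAPDH exceeded that from the 5' end 4.07-fold with full nutrients and 2.61-fold without phosphate, a measure that varies with RNA integrity and labelling. At 100 h the background was 69.92 without phosphate against 55.21, the spike-in log2 ratio averaged -1.06 ± 0.24 (SD, n = 9 probe sets), and the GAPDH ratio was 4.52 with full nutrients and 2.12 without phosphate. The part of these measures in the members' low signal at 4 h, and in their match at 100 h, was not tested. As a check of the tissue, all 12 probe sets of 9 photosynthesis genes were above the level on the 4 h arrays. None of the 4 root markers had a named probe set, so root tissue could not be checked for. In leaf tissue measured whole, fewer cells of a type and less RNA per cell cannot be told apart.

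The members were lower without phosphate at 4 h by a median of 2.55-fold (log2 ratio -1.35), and the middle of their distribution ran from -1.72 to -1.13. The lowest log2 ratio was -3.37 and the highest -1.01. For comparison, the log2 ratio of a gene between its own probe sets on these arrays varied with an SD of 0.35, which covers neither plants nor hybridisations. Log2 ratios between -1 and -1.5 were found for 79 members, between -1.5 and -2 for 29, and of -2 or below for 16. Over all 4478 probe sets bright enough at 4 h the median was 0.02, and 6.65% of them were 2-fold or more lower, the pool from which the members came. That pool held 298 probe sets. Of these, 134 were within 1.4-fold at 100 h. Among those with a bright enough array at 100 h, 56 were 2-fold or more higher there and 13 were 2-fold or more lower. The remainder lay between or, like a probe set of AT4G20860, passed 2-fold on arrays too dim to be counted. Of all probe sets bright enough at 4 h, 66.3% were within 1.4-fold at 100 h.

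**Figure D1:**
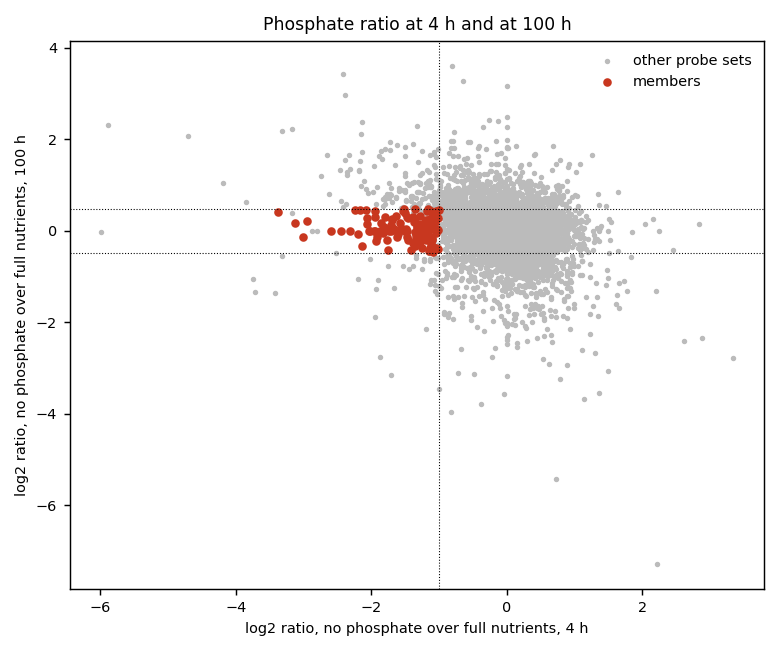
Each point is a probe set whose highest array reached the level, with its log2 ratio of no phosphate over full nutrients at 4 h on the horizontal and at 100 h on the vertical axis. Dotted lines mark the limits of the rule, and the 124 members (red) lie in the band they enclose, from -3.37 to -1.01 at 4 h.

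The label "only at 4 h" covers different courses over the 4 arrays. The rule asks for a low no-phosphate signal at 4 h and matched signals at 100 h, so it favours a single low array. The same counts were not made over other probe sets, so here and below they only describe the members. In 91 of the 124 members the 4 h array without phosphate was the lowest of the 4, and in 54 it was at least 2-fold below each of the other 3. In 39 of these 54 the full-nutrient arrays of both times were also within 1.4-fold of each other, so that 3 arrays were alike and 1 stood low. In 23 members both 100 h arrays were below the no-phosphate array at 4 h, 15 of them by 2-fold or more. In 4 further members the no-phosphate array at 4 h and both 100 h arrays were all below the floor. The other 6 had the no-phosphate array at 4 h level with or between the 100 h arrays. Both 100 h arrays were below the floor for 14 members, and there a phosphate ratio at 100 h could not have been seen. Over the 3 arrays other than full nutrients at 100 h, with the same members, the 4 h array without phosphate was the lowest in 94 and at least 2-fold below both others in 56, and the 100 h array without phosphate was below it in 24.

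Among the named members, a group of pectin and cell wall genes held 5 genes and 7 probe sets. This and the other role groups were formed from the members alone. No share of such genes over the array was computed, so the group sizes show no excess. Pectin is a wall polysaccharide whose methyl groups are removed by pectin methylesterases, which inhibitor proteins block, and whose chains are cut by polygalacturonases. Intensities here and below run in the order full nutrients at 4 h, no phosphate at 4 h, full nutrients at 100 h and no phosphate at 100 h. AT3G47380, of the invertase and pectin methylesterase inhibitor family, was at 142.5, 30.1, 35.6 and 49.0 on the first of its 3 probe sets. The second gave 134.5, 34.9, 29.4 and 36.1, and the third 109.3, 30.1, 34.2 and 38.4. On all 3 the full-nutrient array at 4 h alone was high, the other 3 arrays lay close together, and the log2 ratios at 4 h were -2.24, -1.95 and -1.86.

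AT4G23820, of the pectin lyase-like family to which polygalacturonases belong, showed the other course, with 68.1, 16.8, 80.4 and 80.7. Here the no-phosphate array at 4 h alone was low, 4.05-fold below the full-nutrient array, and it was the only named member whose 4 h no-phosphate signal was 4-fold or more below all 3 other arrays. The pectin methylesterase gene AT1G23200 was at 24.4, 8.50, 18.6 and 25.9, again with 1 low array. A second pectin methylesterase gene, AT2G47550, was at 29.5, 11.8, 7.40 and below the floor, so it was lower still at 100 h in both solutions. AT4G20460, of the UDP-arabinose epimerases that supply sugars for wall polysaccharides, was at 40.6, 10.6, 8.40 and below the floor, also lowest at 100 h. Of the 7 probe sets of these genes, 5 were 2-fold or more lower at 100 h than at 4 h with full nutrients, 3 of them probe sets of AT3G47380. Among all bright enough probe sets 12.7% were, and the choice of members with a high full-nutrient signal at 4 h favours such a difference.

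Genes linked to jasmonate and to storage proteins had some of the lowest ratios among named members. AT2G38240 encodes a 2-oxoglutarate oxygenase that hydroxylates jasmonate and so lowers the active hormone. Its intensities were 402.3 and 80.7 at 4 h and below the floor on both 100 h arrays. The gene was thus 4.99-fold lower without phosphate at 4 h and at least 55.5-fold lower at 100 h than at 4 h with full nutrients. AT4G24340 and AT4G24350 are neighbours on their chromosome and encode proteins of the phosphorylase family that includes vegetative storage proteins of other plants. AT4G24350 was at 184.4, 43.7, 58.9 and 80.5 on 1 probe set and at 621.0, 178.6, 191.0 and 236.3 on the other. AT4G24340 was at 43.9 with full nutrients at 4 h and below the floor on the other 3 arrays, at least 6.06-fold lower without phosphate, while its further probe set was below the floor throughout. As with AT3G47380, only the 4 h full-nutrient array was high for both neighbours. AT1G04040, an acid phosphatase-like gene of the HAD class, was at 127.7, 41.7, 99.7 and 90.1, with 1 low array.

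**Figure D2:**
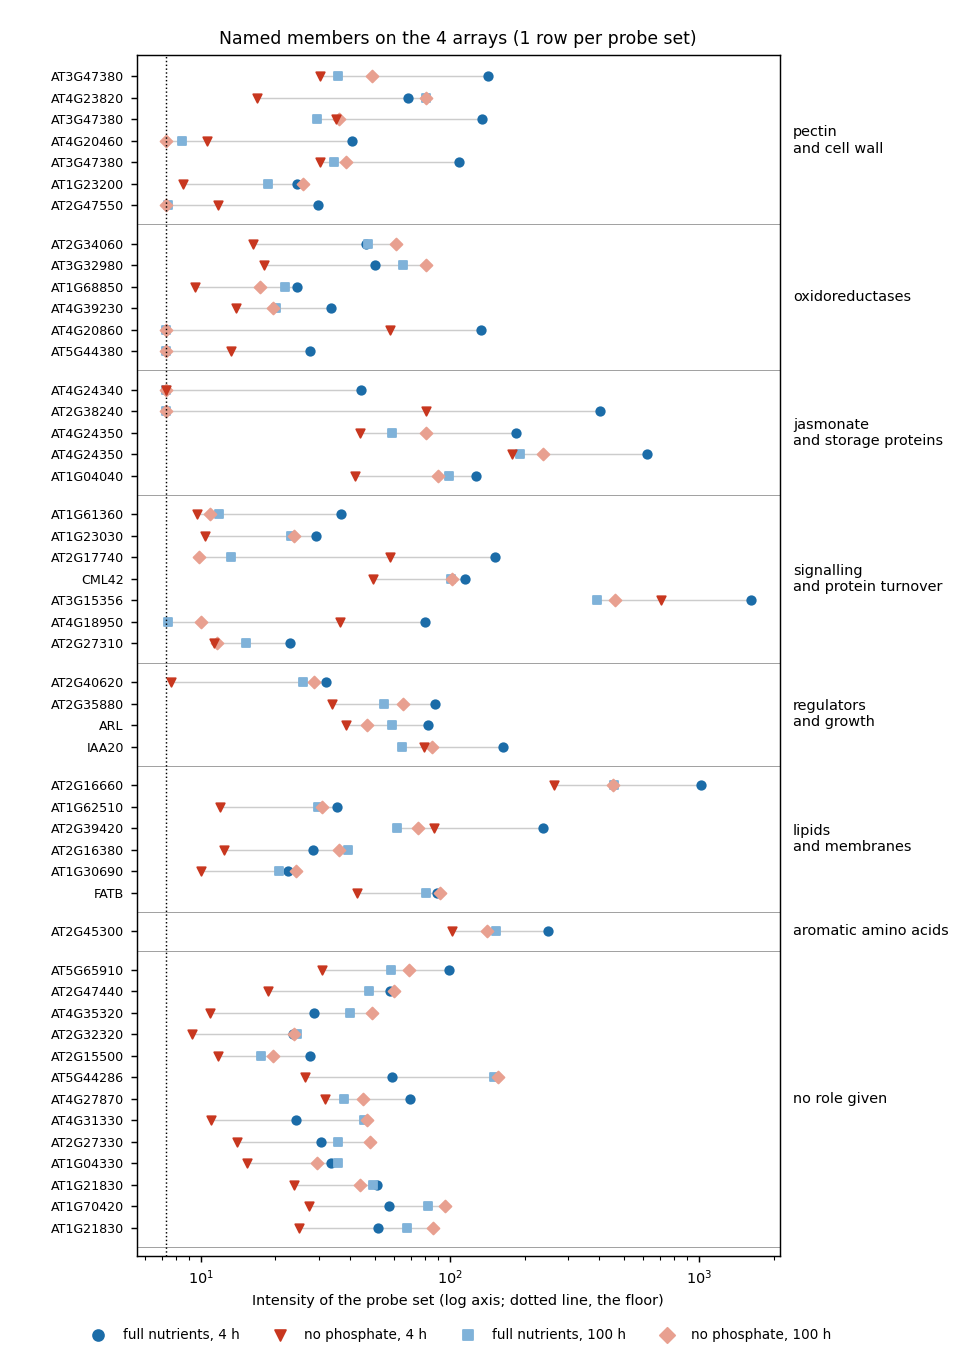
Intensity on a log axis for the 49 members that name 1 gene, 1 row per probe set, with 1 symbol per array and no error bars because each group is 1 array. Rows are grouped by the role given to each gene after the values were seen, and genes in the last group were given none. Symbols on the dotted line are at the floor of 7.25. The red triangles (no phosphate, 4 h) lie left of the dark blue circles (full nutrients, 4 h) in every row by the way members were chosen, while the 100 h symbols lie beside the circles in rows such as CML42 and AT4G23820 and far to their left in rows such as AT2G38240 and AT4G20860.

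Oxidoreductase genes made up 6 members, 3 of them class III peroxidases, which use hydrogen peroxide to cross-link or loosen cell walls. AT2G34060 was at 46.1, 16.3, 46.9 and 61.2, a log2 ratio of -1.50 at 4 h. AT3G32980 was at 50.0, 18.0, 65.3 and 80.3. AT1G68850 was at 24.3, 9.50, 21.8 and 17.4. It had a further probe set, below the floor on every array. In all 3 the no-phosphate array at 4 h was the lowest and both 100 h arrays were above it. The berberine bridge enzyme-like genes, which encode flavin-dependent oxidases, had another course. The member probe set of AT4G20860 was at 133.5 and 57.7 at 4 h and that of AT5G44380 at 27.6 and 13.3, and both probe sets were below the floor on the 2 arrays at 100 h. AT4G39230, related to isoflavone reductases, was at 33.4, 13.9, 20.1 and 19.5.

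Genes of signalling and protein turnover contributed 7 members. AT1G61360, a receptor kinase gene of the S-locus lectin class, was at 36.6, 9.70, 11.9 and 10.9, with a log2 ratio of -1.92 at 4 h and only the 4 h full-nutrient array high. CML42, a calmodulin-like calcium sensor of leaf trichomes and herbivory responses, was at 115.8, 49.4, 101.0 and 102.0, with 1 low array. The U-box ubiquitin ligase gene AT1G23030 was at 29.1, 10.4, 23.1 and 23.8, with the same course. The lectin gene AT3G15356 was at 1620, 705.9, 390.7 and 462.5, so that both 100 h arrays were below both 4 h arrays. That order was shared by AT2G17740, of the cysteine-rich C1 domain family, at 152.4, 57.4, 13.2 and 9.90. The Raf-like kinase gene AT4G18950 had it too, at 79.4, 36.4, 7.40 and 10.0. The F-box gene AT2G27310 was just inside the limit at 4 h, at 22.8, 11.3, 15.2 and 11.6.

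Regulators of transcription and growth were few. AT2G40620, which encodes the basic leucine-zipper factor bZIP18, was at 31.9, 7.60, 25.7 and 28.6, with a log2 ratio of -2.07 at 4 h. IAA20, an Aux/IAA repressor of auxin responses, was at 163.7, 79.3, 64.6 and 85.2 on 1 probe set and below the floor on its other 2. ARL, the ARGOS-like gene that promotes cell expansion, was at 82.2, 38.5, 58.9 and 46.4. AT2G35880, of the TPX2 class of microtubule proteins, was at 87.5, 33.7, 54.6 and 65.2. Only bZIP18 among these 4 had 1 array at least 2-fold below each of the others.

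Lipid and membrane genes included FATB, the thioesterase that releases palmitate from its carrier in the chloroplast, at 89.1, 42.6, 80.1 and 91.6. The Sec14-like genes AT1G30690 and AT2G16380, whose proteins bind phosphoinositides, were at 22.5, 10.0, 20.6 and 24.2 and at 28.4, 12.4, 39.0 and 36.1. AT1G62510, of the lipid-transfer protein family, was at 35.4, 12.0, 29.6 and 30.8. In these genes the 3 arrays other than no phosphate at 4 h were close together. AT2G39420, of the alpha/beta hydrolases, was at 238.2, 86.6, 61.6 and 74.8, and the membrane transporter-like gene AT2G16660 at 1025.5, 262.9, 458.1 and 454.7, both with the 4 h full-nutrient array high. The gene for EPSP synthase of the shikimate pathway, AT2G45300, was at 248.0, 102.2, 153.3 and 141.4 on its member probe set.

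The remaining 12 named genes, with 13 probe sets, are given without a role. Their log2 ratios at 4 h ran from -1.70 for AT5G65910 to -1.06 for 1 probe set of AT1G21830, and 8 of the 13 had the no-phosphate array at 4 h at least 2-fold below each of the other 3. AT2G47440 was at 57.8, 18.6, 47.4 and 59.6, and AT2G32320 at 23.6, 9.20, 24.3 and 23.8. AT4G35320, AT4G31330, AT2G27330 and AT1G70420 were likewise lowest without phosphate at 4 h, with log2 ratios of -1.39, -1.14, -1.13 and -1.07. AT2G15500 (-1.22), AT4G27870 (-1.14) and AT1G04330 (-1.11) were lowest there by less than 2-fold. AT5G44286 is annotated as a snoRNA gene and was at 58.9, 26.2, 150.8 and 156.5, the only named member at least 2-fold higher at 100 h than at 4 h with full nutrients. The further probe set of AT5G44286 was below the floor on every array. For 19 of the 45 named genes, such as AT2G47550, AT3G15356 and ARL, individual values are given although the rule for naming genes did not ask for them, a choice made after they were seen.

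The 75 members that do not name 1 gene had a median log2 ratio of -1.33 at 4 h, against -1.36 for the 49 that do. In 35 of them the no-phosphate array at 4 h was at least 2-fold below each of the other 3, and in 10 both 100 h arrays were below the floor. The one with the lowest ratio of all members was at 75.0, below the floor, 68.2 and 91.1, at least 10.3-fold lower. The next was at 1040.2, 119.4, 1507.2 and 1691.9, or 8.71-fold lower. Both showed 1 low array among 4.

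Time within a solution was not a limit of the rule, although it shares the same arrays. With full nutrients, 42 of the 124 members (33.9%) were 2-fold or more lower at 100 h than at 4 h, where 12.7% of 4516 bright enough probe sets were. Only 3 members were 2-fold or more higher, or 2.42%, where the background was 6.44%. The median log2 ratio of the members was -0.41, against -0.02 for all. A member needed a high 4 h full-nutrient signal to be chosen, and a high value there also lowers this time ratio, so the excess cannot be told apart from the choice. The other 174 probe sets that were lower at 4 h were much alike, with 51 (29.3%) lower over time and a median of -0.56. This course is thus not shown to be particular to the members.

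The members fell into 3 sets by this time ratio. In the 79 within 2-fold, the median intensities on the 4 arrays, in the order used above, were 59.2, 23.8, 58.9 and 61.2. In the 42 that were lower they were 92.9, 32.2, 11.1 and 10.0, and all 14 members below the floor on both 100 h arrays were among them. The 3 that were higher comprised AT5G44286 and 2 unnamed probe sets. Named members of the lower set held 18 probe sets, among them AT3G47380, both genes AT4G24340 and AT4G24350, AT2G38240, AT4G20860 and AT3G15356, while the 30 in the middle set included the 3 peroxidase genes, CML42, FATB and AT4G23820. Medians of the log2 ratio at 4 h were -1.66 in the lower set and -1.26 in the middle set.

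**Figure D3:**
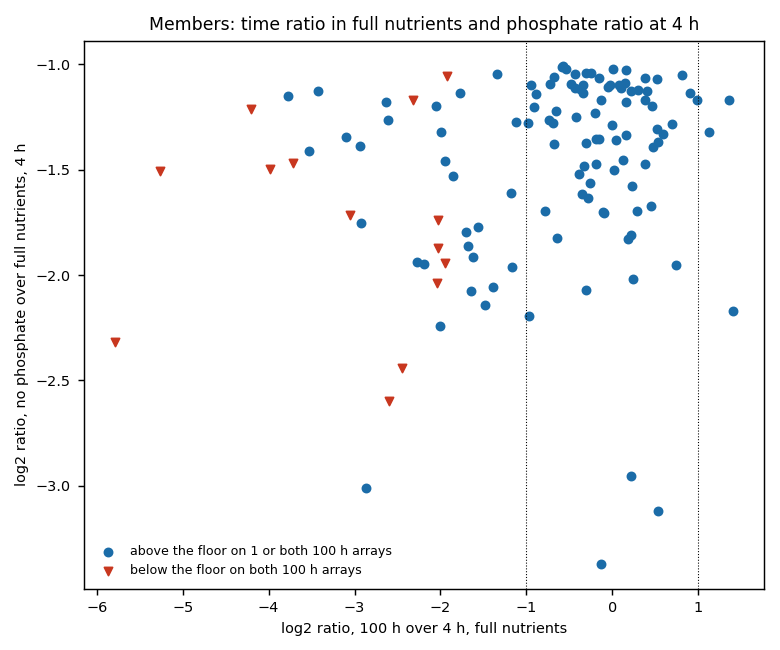
Each point is 1 of the 124 members, with its log2 ratio of 100 h over 4 h in full nutrients on the horizontal axis and its log2 ratio of no phosphate over full nutrients at 4 h on the vertical axis. Red triangles are the 14 members below the floor on both 100 h arrays, whose time ratio is a bound, and dotted lines mark 2-fold. The 79 members between the dotted lines are those whose full-nutrient signal was within 2-fold at the 2 times, and 42 lie at or left of the left line.

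Without phosphate, 98 members had a bright enough array in the comparison of times. Of these, 55 (56.1%) were 2-fold or more higher at 100 h than at 4 h, where 15.3% of 4534 probe sets were, and 13 (13.3%) were 2-fold or more lower, where 17.4% were. Since the rule fixes a low 4 h and a matched 100 h signal, the higher count follows largely from the choice. The 13 lower ones run against it, and they include AT2G38240, AT2G17740, AT4G20860 and AT4G18950, with log2 ratios of -3.48, -2.54, -2.99 and -1.86, of which the values for AT2G38240 and AT4G20860 are bounds. In these 4 genes the signal was lower at 100 h in both solutions.

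Probe sets that the rule did not take offer the same genes measured again. Of the 45 named genes, 11 had several probe sets, 25 in all, of which 15 were members and 10 were not. AT3G47380, AT4G24350 and AT1G21830 had all of their probe sets among the members, the last with 51.8 and 24.8 on 1 and 51.0 and 23.7 on the other at 4 h. Of the 10 others, 4 were bright enough at 4 h, and all 4 had a negative log2 ratio there, though only 1 passed 2-fold. That one was the second probe set of AT4G20860, at 187.3, 49.1, 17.5 and below the floor, with -1.93 at 4 h. At 100 h its log2 ratio was -1.27 or lower, so this probe set was lower without phosphate at that time too. Its brighter 100 h array was under the level of 22.45, so that ratio was not counted as a 2-fold difference.

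The second probe set of AT2G40620 (bZIP18) was at 44.9, 24.3, 47.7 and 24.6, with log2 ratios of -0.89 at 4 h and -0.96 at 100 h, so it did not return at 100 h as the member did. For AT2G45300, the EPSP synthase gene, the second probe set had -0.31 at 4 h and 0.96 at 100 h, and for AT2G27330 it had -0.11 and 0.23. For these 3 genes the member probe set had the lower ratio at 4 h, which the choice favours. Some of the suffixes other than plain "at" on probe set names mark probes that can be shared with related genes or with another probe set of the gene. A suffix of any such kind is carried by 39 of the 124 members (31.5%, against 24.3% of all probe sets) and by 13 of the 49 named. The kinds of suffix were not counted apart. Signals of those with shared probes, as may be so for AT3G47380 and AT4G24340, may hold RNA of related genes.

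**Figure D4:**
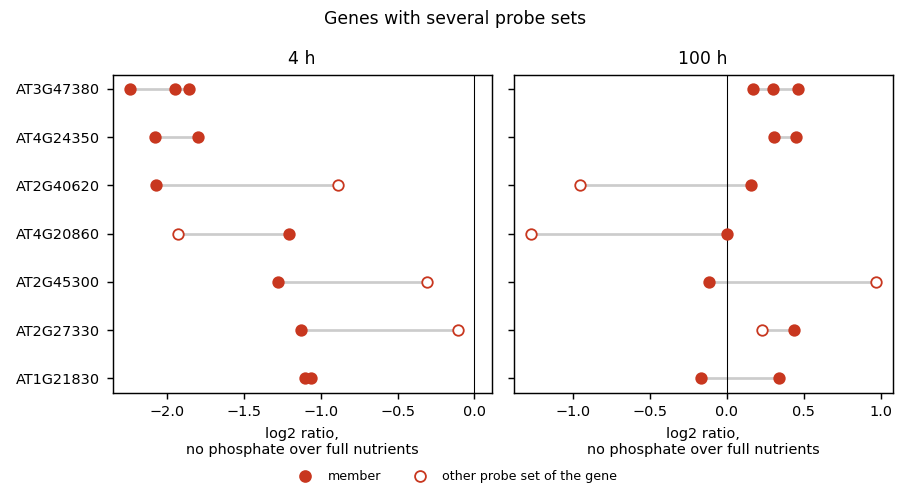
Log2 ratio of no phosphate over full nutrients at 4 h (left) and 100 h (right) for the 7 genes with several probe sets bright enough at 4 h, 15 probe sets in all. Filled points are members and open points other probe sets of the gene. The probe sets of AT3G47380, AT4G24350 and AT1G21830 lie close together at 4 h, while those of AT2G40620, AT2G45300 and AT2G27330 lie apart.

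The limits of the rule pass through a crowded range. Just inside the 2-fold limit at 4 h were log2 ratios of -1.01, -1.01 (AT2G27310) and -1.02, and just outside it -0.997 (AT1G10040), -0.991 (AT1G05550) and -0.981. At the level limit the full-nutrient array at 4 h read 22.5 (AT1G30690), 22.5 and 22.8 inside, and 22.4, 22.3 and 21.9 outside. At 100 h the log2 ratios nearest the limit had sizes of 0.484, 0.482 and 0.478 (AT1G23200) inside and 0.488, 0.489 and 0.490 outside.

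When the 100 h array without phosphate was set against full nutrients at 4 h, which avoids the doubtful control, 89 probe sets met the rule, 46 of them among the 124 and 16 of these named. AT4G23820, CML42, FATB, AT2G34060, AT1G62510, AT2G47440 and AT2G35880, with 1 probe set of AT1G21830, were members under this control, under quantile normalization and under a floor at the 45th percentile. The 3 probe sets of AT3G47380, both of AT4G24350, and AT2G38240 were members under the latter 2 settings but not with the 4 h control, since their 100 h signals were well below the 4 h full-nutrient signal. Scaling to the spike-in probe sets shifted the median log2 ratio of all bright enough probe sets at 4 h from 0.02 to 0.54, and 44 of the 124 members then remained 2-fold or more lower, while all 124 remained below full nutrients. None of the 8 named probe sets that were members under all 3 other settings, from AT4G23820 to AT1G21830, was a member under this scaling.

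Genes outside the set give the setting at 4 h. All 12 probe sets of the 9 measured photosynthesis genes, of 53 listed, were below full nutrients at 4 h with a median log2 ratio of -0.51, but 1 was 2-fold lower and none was a member. Of the clock and light list, 1 gene of 19 was measured, GI, with 3 probe sets bright enough and none past 2-fold. Of the 19 defence and stress genes, COR47, a cold-induced dehydrin, was measured on 2 probe sets, with log2 ratios above 0 at 4 h (1.11 and 0.68). Other cold-induced genes had ratios below 0, found through a keyword for stress in gene names. KIN2, left out of the members by name, had -1.12 and -1.19 on its 2 probe sets, and COR15B had -0.97. Searches for 12 functional keywords in the gene names and synonyms matched 3 members, AT2G40620, CML42 and FATB, so that these classes say little of the set. The cell wall and redox keywords matched no member, since they missed the members placed above in the pectin and cell wall group and among the oxidoreductases. Counts for these keyword classes therefore leave those members out. At 4 h, none of 10 bright enough probe sets matched by the cell wall keywords was 2-fold lower and 1 was 2-fold higher. Of 23 matched by the redox keywords, 1 was 2-fold lower and none higher.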

How the data were processed

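Expression was measured on 4 Affymetrix arrays of 8297 probe sets, 1 for each solution and time. The deposited values are linear intensities, 1 per probe set. The mean of each array, without the lowest and the highest 2% of its values, was 99.99. No source used here records the scaling step, the software or how probes were summarised. Solutions were taken from the treatment labels and times from the age labels. After 50 controls were left out, a floor of 7.25 was applied, which is the 30th percentile averaged over the arrays, and 22.45 (the mean of the medians) was the level for a bright enough array. A ratio of 2-fold or more with the brighter array at that level was counted. Ratios to the floor are bounds.

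With 1 array per group no test was made. The members and the gene lists were chosen with earlier results of these data known, and the role groups after the values were seen. A gene was named where a member probe set names it alone. The rule for naming asked for values on all arrays for the 20 named members with the lowest 4 h ratio, genes with several probe sets and members of the lists, which are 26 of the 45 genes. Individual values of the other 19, which the rule left to counts and ranges, were added after they had been seen. Of all probe sets, 3794 name 1 gene, 70 several and 4383 none. Through gene identifiers, 3784 matched 3592 loci of the RefSeq table (TAIR10.1), used for names and gene order only. Sequences and promoter motifs were not analysed here. The SD between probe sets of a gene came from 86 genes and 183 probe sets at 4 h and is too low where probe sets share probes. The code of the selection was checked on simulated data with little noise and with drops larger than those of most members. That check does not measure its precision on these arrays. Python 3.11.15, pandas 2.3.3, numpy 2.4.6 and matplotlib 3.10.9 were used. The alternatives are those given in the closing section.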

Additional observations from a re-analysis of the deposited data

How the results depend on the processing

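As reported there were 124 members. The number of members moved most with the scaling: relative to the spike-in probe sets 16 probe sets met the rule, 10 of them among the 124, and the median log2 ratio of the 124 at 4 h was -0.83 in place of -1.35. With a spike-in log2 ratio of -1.06 at 100 h, this scaling also raises the no-phosphate array there relative to its control. As deposited, all 10 were below the floor without phosphate at 100 h and at 9.7 or less with full nutrients. No member well above the floor at 100 h was thus kept. A full-nutrient level of 100 or more at 4 h left 49 members, of which 22 were 2-fold or more higher at 100 h than at 4 h without phosphate, in place of 55; a band of 1.2-fold at 100 h left 81, and a limit of 3-fold at 4 h left 40, fewer by construction. The number of members was within 1.5 times of 124 with the floor at the 45th percentile of 17.3 (101, 95 shared), quantile normalization (112, 105 shared), the 4 h full-nutrient array as control at 100 h (89, 46 shared) and, in a setting chosen after seeing the data, no floor (112, all shared). The 12 lost with no floor include AT2G38240, AT4G20460, AT4G20860 and AT5G44380. The median time ratio in full nutrients was -0.39 with the 45th percentile floor, -0.30 with quantile normalization, -0.55 with spike-in scaling and -0.44 at the level of 100, and could not be computed with the 4 h control. The counts of courses without the array labelled full nutrients at 100 h were also chosen after seeing the data. Dim members limit the precision, since a signal near the floor gives a ratio that is only a bound.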
